A study of Mus musculus with 30 samples.

Results

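The 28 genes described here make and regulate cholesterol in mouse cells, and they were chosen by name. They are 18 enzymes of cholesterol synthesis, 5 regulators of the response to sterol and 5 genes of sterol uptake, transport and efflux. All 28 were found in each of the 3 deposited tables, among 11740 genes in LSK cells, 11275 in bone marrow and 20619 in stromal cells. In the marrow table Cyp51 stood under its synonym Cyp51a1.

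The 30 RNA-seq libraries came from C57BL/6 mice in a model of myeloid disease with loss of Egr1, Apc and Trp53. LSK cells (Lin-, Sca1+, Kit+, the marrow fraction with stem and multipotent progenitor cells) came from 4 groups of 3 libraries, all taken before disease. They were untransplanted wild type (WT), wild type marrow with a luciferase shRNA in wild type hosts (transplanted WT), Egr1+/-, Apc del/+ marrow with a Trp53 shRNA in wild type hosts (EAP), and EAP with ENU given to donor and recipient. ENU is an alkylating mutagen. Transplanted mice were sampled about 2 months after transplantation. Whole marrow was taken from 6 MDS and 6 AML mice, all with Egr1+/-, Apc del/+ marrow in wild type hosts. The MDS marrow carried the luciferase shRNA and all 6 MDS mice had ENU in donor and recipient. The AML marrow carried the Trp53 shRNA. AML 1, 4 and 5 had ENU in donor and recipient, AML 2 and 3 had none, and AML 6 had it in the recipient only. Disease class therefore goes with the shRNA and partly with exposure, and these cannot be told apart. Transduction need not reach every donor cell, and residual host cells were not measured. Mesenchymal stromal cells were grown from compact bone to passage 1 or 2, with 3 libraries from mice given 10% ethanol (mock) and 3 from mice given 100 mg/kg ENU a month earlier. These mice had no transplant and no engineered allele. The labels of EAP 1 conflict, since its transplant label names wild type marrow while its haploinsufficiency and shRNA labels are those of EAP.

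Cholesterol is built from acetyl-CoA in a linear pathway. The mevalonate enzymes make isoprenoid units and farnesyl diphosphate, which also feeds protein prenylation, and squalene synthase commits it to sterol. When sterol in the endoplasmic reticulum is low, SCAP escorts the transcription factors SREBP1 and SREBP2 (from Srebf1 and Srebf2) to the Golgi for cleavage, and the INSIG proteins hold SCAP back when sterol is high. SREBP2 mainly drives the synthesis enzymes, SREBP1 mainly drives fatty acid synthesis, and Insig1 is itself a target. LXR, a receptor for oxysterols, drives efflux through Abca1 and Abcg1 and receptor degradation through Mylip. In haematopoietic stem and progenitor cells, sterol efflux is known to restrain proliferation.

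Values are per gene as deposited, a normalised signal for LSK cells and marrow and TPM for stromal cells. They were tested with limma on log2(value + 1), and a gene was called at a Benjamini-Hochberg adjusted p under 0.05 over all genes of the table that passed a low-value filter. All 28 members passed it in every comparison. Summed values per library were 808377 to 1437201 in LSK cells, 803746 to 1118648 in marrow and 924162 to 939600 in stroma. In marrow the value steps gave back 17341986 to 21698808 whole reads a library. Read depth could not be told for LSK cells and stroma. The defining markers were present in LSK cells (Kit at 65.3 to 597.7, Ly6a at 78.0 to 245.0) and stroma (Pdgfra at 39.3 to 158.5 TPM, Ptprc at most 1.29 TPM). In marrow, the pan-leukocyte gene Ptprc was at 644.9 or more in all libraries except AML 3, where it was 15.3. The labels do not say that replicates of a group are separate mice except in marrow, where each has its own tag, so elsewhere p-values measure only the spread between these libraries.

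No member was called in any of the 7 comparisons made. In the plot of member differences by comparison, the stromal set stands lowest: 25 of 28 members were lower after ENU and their median log2 difference was -0.62, against -0.01 over all 12089 genes tested. The LSK medians were -0.17 for transplanted WT against WT, -0.05 for EAP against transplanted WT, 0.11 for EAP with ENU against transplanted WT and 0.20 for EAP with ENU against EAP. The marrow medians were 0.07 for AML against MDS and 0.05 for AML with ENU against AML without it. Over all genes these 6 medians lay between -0.02 and 0.04. Comparisons within LSK cells share control libraries, so their values are not independent of each other.

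**Figure D1:**
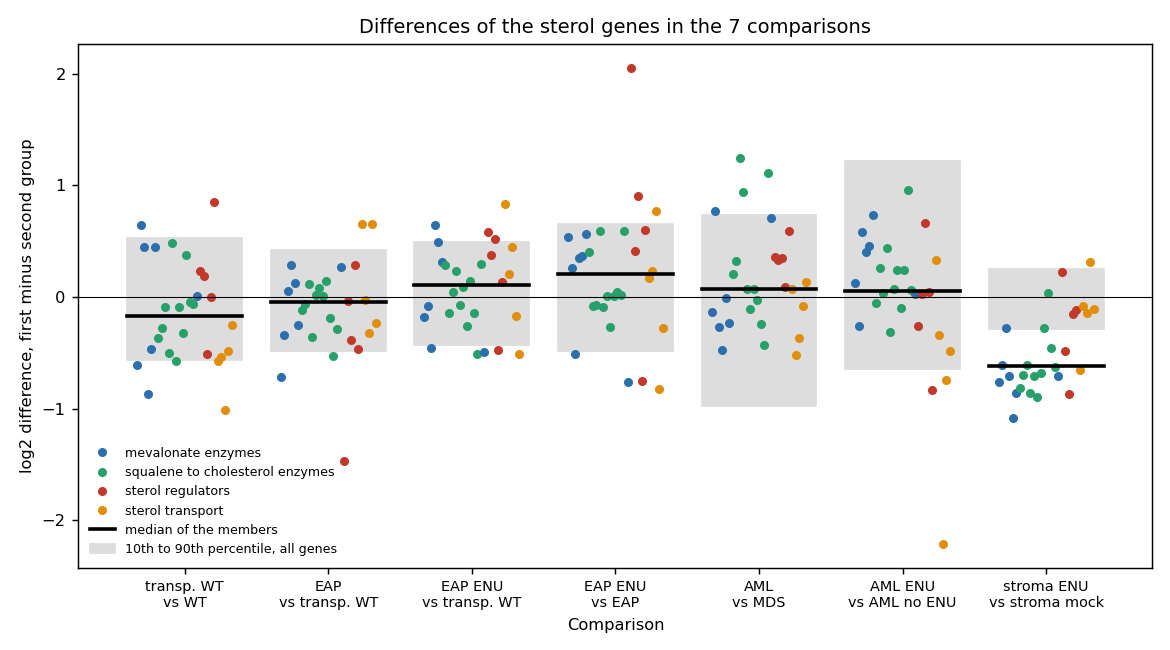
Log2 difference (first minus second group, on log2(value + 1)) of each of the 28 members in the 7 comparisons, with 1 point per gene, coloured by role. Black lines are member medians and grey bands span the 10th to 90th percentile of all genes tested. The stromal median is -0.62 and the other 6 lie between -0.17 and 0.20.

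In stromal cells the enzymes moved together from library to library, and the group difference rested mostly on 2 of the 6 libraries. All 18 enzymes were lowest in ENU 3, and 17 of 18 were highest in mock 1. Over all genes tested, 21.9% were lowest in ENU 3 and 22.3% were highest in mock 1. The exception was Ebp, the sterol isomerase, which was highest in ENU 2. The summed TPM of the 18 enzymes was 1961, 1163 and 931.9 in mock 1 to 3 and 1143, 1123 and 365.9 in ENU 1 to 3. ENU 1 and ENU 2 thus lay between mock 2 and mock 3. The median pairwise Pearson r of the 18 enzymes was 0.93 over 6 libraries and 0.65 over the 4 left without mock 1 and ENU 3. The lowest of the 153 pairs was at 0.14 over all 6 libraries, and 63 pairs were below 0 over the 4.

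RefSeq start-site windows of 5 members are shown because these genes either moved together in stroma (Hmgcs1, Idi1, Cyp51, Insig1) or hardly varied there (Scap). Each window has 250 bases before and 50 after a start on GRCm38.p6, 5′ to 3′ on the gene's strand. Capitals mark CCAAT on either strand (CCAAT or ATTGG) and the sterol element core TCACNCCAC.
Hmgcs1 (chr13:119690101-119690400, plus strand): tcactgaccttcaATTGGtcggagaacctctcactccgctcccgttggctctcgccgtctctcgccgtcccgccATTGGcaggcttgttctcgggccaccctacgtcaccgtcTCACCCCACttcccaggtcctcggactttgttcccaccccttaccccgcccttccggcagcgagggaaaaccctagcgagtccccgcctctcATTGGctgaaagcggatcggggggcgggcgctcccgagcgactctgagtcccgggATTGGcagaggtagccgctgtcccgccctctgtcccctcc
Idi1 (chr13:8885356-8885655, plus strand): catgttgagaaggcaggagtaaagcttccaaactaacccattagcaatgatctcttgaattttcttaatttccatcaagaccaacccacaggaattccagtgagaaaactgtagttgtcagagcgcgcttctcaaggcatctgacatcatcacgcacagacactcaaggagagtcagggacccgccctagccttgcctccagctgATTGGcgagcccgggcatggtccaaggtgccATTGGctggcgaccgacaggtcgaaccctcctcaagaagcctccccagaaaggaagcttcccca
Cyp51 (chr5:4104648-4104947, minus strand): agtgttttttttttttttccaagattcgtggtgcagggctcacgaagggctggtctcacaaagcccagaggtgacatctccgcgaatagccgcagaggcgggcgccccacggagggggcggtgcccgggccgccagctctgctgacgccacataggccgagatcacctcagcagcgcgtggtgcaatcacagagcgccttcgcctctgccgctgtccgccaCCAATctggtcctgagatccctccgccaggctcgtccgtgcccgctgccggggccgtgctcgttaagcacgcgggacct
Insig1 (chr5:28071162-28071461, plus strand): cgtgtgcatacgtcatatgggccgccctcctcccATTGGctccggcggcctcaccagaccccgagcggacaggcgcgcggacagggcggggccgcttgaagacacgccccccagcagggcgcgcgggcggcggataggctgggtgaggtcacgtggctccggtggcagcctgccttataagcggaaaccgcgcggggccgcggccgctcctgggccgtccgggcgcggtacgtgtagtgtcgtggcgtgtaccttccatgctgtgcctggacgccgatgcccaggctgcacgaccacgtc
Scap (chr9:110333038-110333337, plus strand): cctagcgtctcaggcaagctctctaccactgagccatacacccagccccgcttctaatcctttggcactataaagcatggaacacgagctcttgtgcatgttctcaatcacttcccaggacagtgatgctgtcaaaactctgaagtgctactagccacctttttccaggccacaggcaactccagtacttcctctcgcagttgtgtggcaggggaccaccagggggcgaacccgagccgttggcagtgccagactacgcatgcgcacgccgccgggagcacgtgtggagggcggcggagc
Of the 28 members, 22 were in the window table, with 30 windows. CCAAT was in a window of 19 of the 22 genes (86.4%), against 41.1% of the 27025 genes in the table. It was absent from the windows of Abca1, Acat2 and Scap. The windows shown do not stand for all members. Acat2 moved with the other enzymes in stroma (r = 0.99 with their mean). Insig2 (r = -0.215) and Srebf1 (r = 0.12) did not, and each had a window with CCAAT. The E-box CACGTG was in 6 of 22 (27.3%), against 8.09% of genes. Among the 22 the core TCACNCCAC was found in Hmgcs1 alone (4.55%, against 1.44% of genes), at the capitals in its window. The shorter CACCCCAC was in Hmgcs1 and Acat2 (9.09%, against 3.30%), and the relaxed TCACNCNAC, which covers the core, was in Hmgcs1 and Nsdhl (9.09%, against 3.15%). The relaxed 10-base element was in Nsdhl (4.55%, against 0.622%) and the full 10-base element in none (against 0.0999%). These 7 motifs overlap in part, both strands were searched, and a match is a description of letters only.

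**Figure D2:**
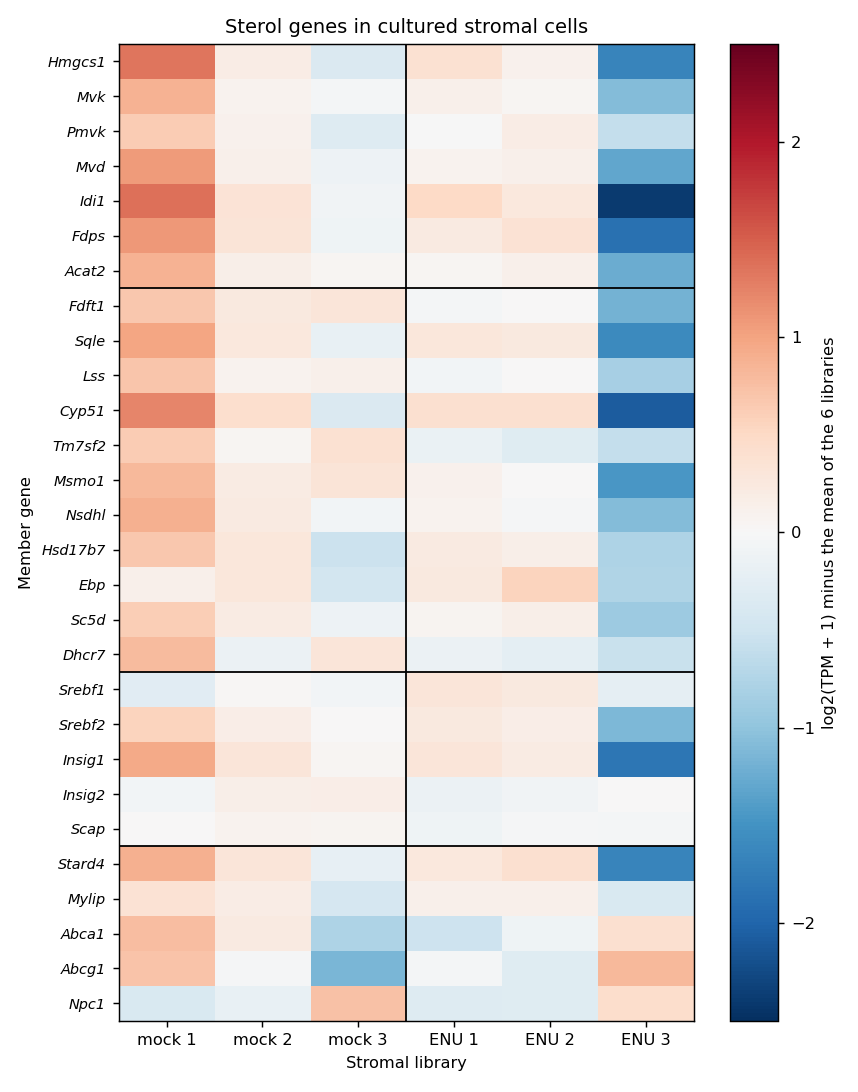
Each cell is log2(TPM + 1) of a member gene (rows) in a stromal library (columns) minus that gene's mean over the 6 libraries. Horizontal lines part mevalonate enzymes, squalene to cholesterol enzymes, regulators and transport genes, and the vertical line parts mock from ENU. All 18 enzyme rows are lowest in ENU 3 and 17 are highest in mock 1.

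Among the 7 mevalonate enzymes the median log2 difference was -0.71, from -1.09 to -0.28, and all 7 were lower after ENU. Idi1 (chr13:8885501-8892451), which isomerises isopentenyl diphosphate, was at 221.8, 108.3 and 80.5 TPM in mock 1 to 3 and at 120.6, 103.0 and 15.4 TPM in ENU 1 to 3. ENU 3 was 5.22-fold below the next lowest library, while ENU 1 and ENU 2 lay within the mock range. Hmgcs1 (chr13:119690379-119708260), the synthase that makes HMG-CoA, was at 309.0, 137.7 and 93.9 TPM in mock and 158.9, 132.0 and 38.2 TPM in ENU. Fdps, farnesyl diphosphate synthase, was at 312.9, 184.0 and 135.4 TPM in mock and 170.8, 188.3 and 39.6 TPM in ENU. In both genes mock 1 was highest and ENU 3 lowest, and the groups overlapped. Pmvk, phosphomevalonate kinase, had the smallest difference of the 7 (-0.28 on the log2 scale).

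Of the 11 enzymes from squalene to cholesterol, 10 were lower after ENU, with a median of -0.68. The 4 members with the smallest p were in this segment, and none was called. Tm7sf2 (chr19:6062821-6068373), a sterol reductase, was at 14.7, 9.46 and 12.03 TPM in mock and 7.94, 7.17 and 5.71 TPM in ENU. The groups did not overlap, and the log2 difference was -0.71 ± 0.20 (SE, n = 3 and 3, adjusted p = 1.00 by limma). Fdft1 (chr14:63145150-63179578), squalene synthase, was at 58.6, 42.9 and 45.1 TPM in mock and 34.9, 36.4 and 15.3 TPM in ENU, without overlap (-0.82 ± 0.35). Lss (chr10:76531588-76557138), which closes the sterol rings, was at 31.6, 20.5 and 21.2 TPM in mock and 18.2, 19.3 and 10.3 TPM in ENU, also without overlap (-0.61 ± 0.29). Dhcr7 (chr7:143823145-143848410), which makes cholesterol from 7-dehydrocholesterol, was at 29.9, 15.2 and 21.1 TPM in mock and 15.3, 14.1 and 11.2 TPM in ENU (-0.63 ± 0.26). Its mock 2 lay just below ENU 1, so its groups overlapped.

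In total 5 members, all lower, had groups that did not overlap (Tm7sf2, Fdft1, Lss, Msmo1 and Scap), against 4.27% of all genes for that direction. With limma 0 of 12089 genes were called (0%) and 312 (2.58%) had an unadjusted p under 0.05, of which 1 was a member. These fits have no block, although same-numbered stromal libraries deviated together. With the number as a block in limma, 0 members and 0 of 12089 genes were called, and the adjusted p of Tm7sf2 was 0.483. By number, the median member difference was -0.71 for number 1, -0.07 for number 2 and -0.99 for number 3. Without ENU 3 the member median was -0.15, without mock 1 it was -0.34 and without both number 3 libraries it was -0.40, with 0 members called against 0.00823% of genes. All 4 named enzymes stayed lower under the 12 alternatives run, but they were picked by the smallest p and the alternatives reuse these libraries.

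The regulators split. Insig1, which retains SCAP and is an SREBP target, was at 124.4, 79.5 and 65.8 TPM in mock and 78.8, 73.9 and 17.7 TPM in ENU, and its r with the mean of the 18 enzymes was 0.99. Srebf2, for SREBP2, followed the same order (83.7, 62.8 and 56.5 TPM, then 66.5, 63.0 and 25.2 TPM; r = 0.98). By contrast Scap stayed within 34.1 to 39.2 TPM over the 6 libraries and Insig2 within 73.3 to 91.4 TPM. Srebf1 ran from 16.9 TPM in mock 1 to 26.2 TPM in ENU 1, an order unlike that of the enzymes (r = 0.12). The gene symbol does not separate the SREBP1 isoforms.

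Among the transport genes, Stard4, a cytosolic sterol carrier, moved with the enzymes, at 35.9, 23.7 and 16.5 TPM in mock and 23.1, 25.6 and 5.35 TPM in ENU (r = 0.98). The efflux transporters did not over all 6 libraries (r = 0.09 for Abca1 and -0.15 for Abcg1). Abca1 was at 21.8, 14.5 and 6.79 TPM in mock and 8.35, 11.4 and 16.6 TPM in ENU, and Abcg1 at 6.53, 3.49 and 1.10 TPM in mock and 3.44, 2.75 and 7.13 TPM in ENU. ENU 3, lowest for every enzyme, held the highest Abcg1 and the second highest Abca1. That contrast rests on the far libraries: over the 4 left without mock 1 and ENU 3, r was 0.85 for Abca1, 0.98 for Abcg1 and 0.91 for Stard4. Mylip, the ligase that degrades lipoprotein receptors, was at 20.0, 17.6 and 11.3 TPM in mock and 17.0, 17.0 and 11.6 TPM in ENU. Npc1, the lysosomal sterol exporter, was highest in mock 3 (57.7 TPM) and ENU 3 (46.7 TPM) and at 25.8 to 29.9 TPM elsewhere.

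Other measures moved along with ENU 3, mock 3 and mock 1, and their part in the result was not tested. The proliferation gene Mki67 was at 10.9 TPM in mock 3 and 20.4 TPM in ENU 3, against 71.3 to 104.4 TPM in the others. The 10 cycling genes summed to 143.7 to 784.3 TPM in mock and 256.5 to 862.3 TPM in ENU. The 7 adipocyte genes summed to 873.0 to 5305 TPM in mock and 1532 to 2102 TPM in ENU, with Fabp4 highest in mock 1 at 2989 TPM. Of the 8 stromal markers, ENU 3 was lowest for Pdgfra, Pdgfrb, Thy1, Col1a1, Col1a2 and Cxcl12 (Thy1 at 0.708 TPM, against 22.4 to 242.0 TPM in the others), highest for Nt5e at 117.5 TPM and within the range of the others for Eng at 63.4 TPM. Y-linked Ddx3y was at 0.219 and 0.201 TPM in mock 1 and 2 and at 68.1 TPM or more in the other 4; sex is not given in the labels. With a term for mock 1 and 2 the member median was -0.23.

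Neighbouring pathways were described for comparison, and none of their genes was called in stroma. Of the 13 fatty acid synthesis genes tested, 12 were lower after ENU (median -0.41). The 15 genes of SREBP processing and the 11 of the isoprenoid branch had medians of -0.03 and 0.01. The 12 LXR and efflux genes had a median of -0.11, the 16 of sterol transport and storage -0.08 and the 5 oxysterol enzymes -0.29. The 5 genes outside the 28 whose 6-library profile was most like the mevalonate enzyme mean were Xbp1 (r = 1.00), Fasn (0.99), Slc25a11 (0.99), Gtf3a (0.99) and Emilin2 (0.99), among 10113 genes compared. These profiles share the 6 libraries, mock 1 and ENU 3 included.

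In LSK cells 3 libraries stood apart before any comparison: WT 2, transplanted WT 3 and EAP 1 had the highest summed values. Srebf1 was listed at 0 in these 3 and in no other LSK library. Scap was at 7.20, 39.8 and 12.5 in the 3 and at 66.5 to 95.9 in the other 9. Acat2, a cytosolic acetyl-CoA acetyltransferase that feeds the pathway, was at 363.1, 248.1 and 365.3 against 64.5 to 107.8. Long genes were low in these libraries: the Spearman correlation of a gene's deviation with its exon length was -0.22, -0.36 and -0.39 over 9208 genes. It was 0.44 and 0.45 in WT 1 and WT 3, and 0.38 and 0.26 in EAP 2 and EAP 3. The trend was not confined to the libraries apart, with -0.14, -0.20 and -0.13 in EAP with ENU 1 to 3. Over 27 members the same correlation was -0.37, -0.41 and -0.505 in the 3 libraries apart. It was 0.43 and 0.41 in WT 1 and WT 3, and 0.35 and 0.23 in EAP 2 and EAP 3. In EAP with ENU 1 to 3 it was mixed, at 0.22, -0.28 and -0.21. Whether length accounts for the member values was not tested. WT 2 also lacked the Y-linked transcript Ddx3y (0.0415, against 14.3 or more in the other 11). The enzymes did not share a pattern over the 12 libraries (median pairwise r = 0.30, and 52 of 153 pairs below 0).

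Transplanted WT against WT asks what transplantation and the control shRNA do without engineered alleles. Sterol genes were mixed, with 18 of 28 members lower, and 0 were called, against 3 of 11730 genes (0.0256%). The 5 transport genes were all lower. Stard4 was at 14.5, 21.3 and 13.3 in WT and 10.1, 11.9 and 9.44 in transplanted WT (log2 difference -0.57 ± 0.24, SE; adjusted p = 0.639 by limma). Hmgcs1 was at 49.4, 46.9 and 45.0 in WT and 31.2, 34.7 and 26.3 in transplanted WT (-0.61 ± 0.26, adjusted p = 0.657). These groups did not overlap in either gene. Mylip was at 29.9, 28.3 and 34.0 in WT and 22.9, 21.6 and 18.2 in transplanted WT (-0.53 ± 0.25). Cyp51 (chr5:4081145-4104746), the lanosterol demethylase, was at 27.9, 34.9 and 33.9 in WT and 21.6, 24.7 and 20.8 in transplanted WT (-0.50 ± 0.24). Idi1 was the fifth member without overlap, at 49.8 to 54.3 in WT and 35.0 to 40.6 in transplanted WT. The 5 non-overlapping members, all lower, compare with 8.42% of all genes in that direction. At an unadjusted p under 0.05 there were 2 members and 855 genes (7.29%). Without the 3 libraries that stood apart, 490 of 11727 genes were called (4.18%) and 0 members, and the Stard4 difference was -0.31 (adjusted p = 0.310). Neutrophil transcripts moved too: the 8 measured neutrophil genes, all higher, summed to 1973 to 2099 in WT and 2917 to 6870 in transplanted WT, with Elane at 22.4 to 54.9 and 196.4 to 719.4. The 10 cycling genes summed to 932.0 to 1373 in WT and 1580 to 2547 in transplanted WT. Their part in the sterol gene values was not tested. In bulk samples fewer cells of a type and less RNA per cell cannot be told apart.

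**Figure D3:**
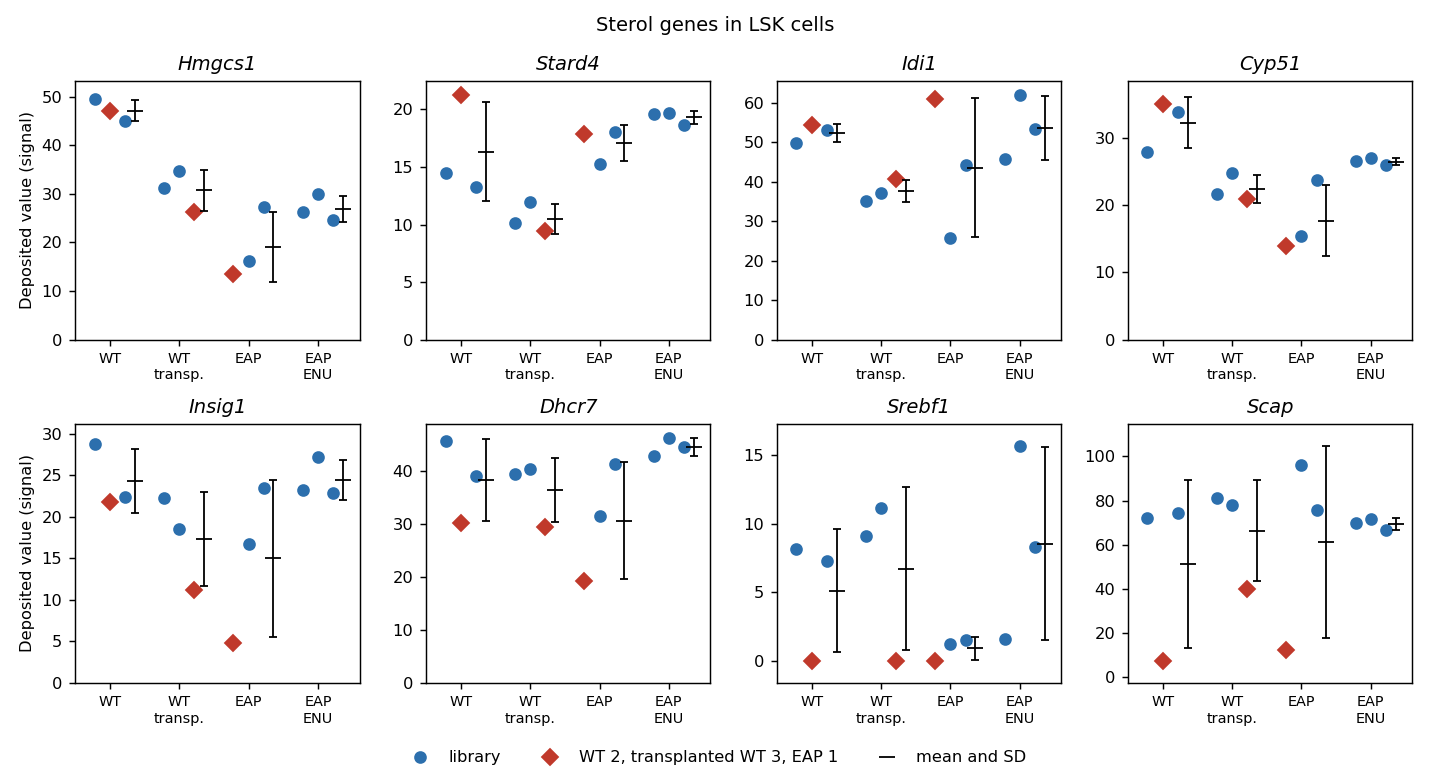
Deposited value (signal) of 8 members in the 12 LSK libraries, with 1 point per library in 4 groups and the group mean with SD to the right. Red diamonds are WT 2, transplanted WT 3 and EAP 1, where Srebf1 is listed at 0 and Scap is low. Hmgcs1 is highest in WT, and Stard4 is lowest in transplanted WT.

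EAP against transplanted WT addresses the combined loss of Egr1, Apc and Trp53 without ENU. Again 0 members were called, against 3 of 11730 genes (0.0256%), with 12 members higher and 16 lower. Hmgcs1 was at 13.6, 16.2 and 27.3 in EAP against the transplanted WT values above (-0.72 ± 0.26, adjusted p = 1.00 by limma), and EAP 3 overlapped the control range. Stard4 (chr18:33199355-33213862) was at 17.9, 15.2 and 18.0 in EAP, above all 3 control values (0.66 ± 0.24, adjusted p = 1.00). It was the sole member without overlap, against 3.80% of all genes in that direction. Whether its position relative to the engineered Egr1 and Apc alleles bears on its value was not tested. Sc5d (chr9:42251595-42264256), the lathosterol desaturase, was at 31.3, 14.8 and 20.8 in EAP and 27.9, 27.1 and 39.97 in transplanted WT (-0.53 ± 0.28). Cyp51 was at 14.0, 15.3 and 23.8 in EAP (-0.36 ± 0.24), and EAP 3 lay within the control range. EAP 2 had the lowest summed enzyme value of the 12 libraries (489.5), and without it the member median turned from -0.05 to 0.13. At an unadjusted p under 0.05 there were 2 members and 424 genes (3.61%). Without the 3 libraries that stood apart, 0 members were called, against 0.00853% of genes, and the Stard4 difference was 0.56. Of 11 T cell genes tested, 10 were lower (median -0.81), with sums of 369.9 to 474.9 in EAP and 630.1 to 872.4 in transplanted WT. Most of each sum was Dntt, at 239.9 to 408.8 in EAP and 515.5 to 717.0 in transplanted WT. Cd3e was at 5.51 or less in both groups, so the sums are no measure of T cell content. All 5 macrophage genes tested were lower (median -1.52), while their sums, 55.4 to 271.1 and 98.9 to 194.2, overlapped. None of these genes was called, and their part in the sterol gene values was not tested. In none of the 4 LSK comparisons was a gene of the 6 related lists called by limma.

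With ENU added, EAP was again set against transplanted WT, which had no ENU, so genotype and exposure cannot be told apart in this comparison. Of the members 16 were higher, 12 lower and 0 called, against 2 of 11730 genes (0.0171%). Stard4 was at 19.6, 19.7 and 18.7 with ENU, above the 10.1, 11.9 and 9.44 of transplanted WT (0.83 ± 0.24, adjusted p = 1.00 by limma). The part of its position relative to the engineered alleles was again not tested. Idi1 was at 45.7, 61.9 and 53.2 against 35.0, 37.2 and 40.6 (0.49 ± 0.28). The groups overlapped in neither gene. Sc5d was at 21.2, 21.0 and 22.6, below all 3 controls (-0.51 ± 0.28), and Mvd, which decarboxylates mevalonate diphosphate, was at 7.33, 8.53 and 9.74 against 3.36, 7.43 and 5.08 (0.64 ± 0.48), with overlap. In all 6 members were higher without overlap (Stard4, Idi1, Fdft1, Cyp51, Insig1 and Dhcr7), against 9.90% of genes in that direction, and Sc5d alone was lower, against 8.61%. At an unadjusted p under 0.05 there were 1 member and 376 genes (3.21%). Without the 3 libraries that stood apart, 0 members were called, against 0.0512% of genes, and the Stard4 difference was 0.76 (adjusted p = 0.205).

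EAP with ENU against EAP compares exposure within the genotype. Here 19 of 28 members were higher with ENU and 0 were called, as was no gene of 11730 (0%), while 617 genes (5.26%) and 1 member had an unadjusted p under 0.05. Cyp51 was at 26.5, 26.9 and 25.8 with ENU and 14.0, 15.3 and 23.8 without (0.59 ± 0.24, adjusted p = 0.909 by limma). Dhcr7 was at 42.8, 46.0 and 44.4 with ENU and 19.2, 31.4 and 41.2 without (0.59 ± 0.28), also without overlap. Hmgcs1 was at 26.3, 29.9 and 24.6 with ENU and 13.6, 16.2 and 27.3 without (0.53 ± 0.26). Insig2, the INSIG form not driven by SREBP2, ran the other way at 25.2, 19.3 and 21.4 with ENU and 60.9, 36.9 and 23.4 without (-0.76 ± 0.36). The spread within EAP was wide in each gene, and EAP 3 lay nearest to the ENU values. The 4 members higher without overlap were Cyp51, Dhcr7, Srebf1 and Stard4, against 6.68% of genes in that direction. Srebf1 was at 1.64, 15.7 and 8.31 with ENU and at 0, 1.26 and 1.54 without. Without EAP 2 the member median was -0.01. Without the 3 libraries that stood apart, 0 members were called, against 0.00853% of genes, and the differences were 0.45 for Cyp51 and 0.30 for Dhcr7.

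By level per kb of exon, Acat2 was highest of the 28 in LSK cells (58.7 ± 43.5 over 12 libraries) and Abca1 lowest (0.498 ± 0.377). The scaling of the LSK values is not known, so whether they already allow for length could not be told. Exon length here and in marrow joins the exons of all annotated transcripts, which lowers genes with many of them. The lead of Acat2 over Fdps (30.7 ± 10.95) and Ebp (29.3 ± 9.40) was smaller than its own spread, and its 3 highest values were those of the 3 libraries apart. Srebf2, at 11.9 ± 4.90 per kb, stood above Srebf1 at 0.947 ± 0.935 per kb. Insig1 was at 6.55 ± 2.17 per kb and Insig2 at 9.03 ± 3.55 per kb, which overlap. Abcg1 was at 4.14 ± 3.10 per kb and Mylip at 7.52 ± 1.72 per kb.

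In marrow the sterol enzymes Dhcr7, Lss and Cyp51 were higher on average in AML than in MDS, and none passed the threshold. AML against MDS called 0 of 28 members, against 361 of 11273 genes (3.20%). At an unadjusted p under 0.05 there were 7 members, against 3302 genes (29.3%). No member had groups without overlap, against 3.84% of genes. Dhcr7 ran from 11.3 through a median of 15.1 to 22.3 in the 6 MDS libraries and from 20.1 through 37.1 to 57.3 in the 6 AML libraries (log2 difference 1.11 ± 0.28, SE; adjusted p = 0.0519 by limma). Lss ran from 4.39 through 6.38 to 11.2 in MDS and from 10.1 through 16.9 to 34.3 in AML (1.24 ± 0.34, adjusted p = 0.0592). Cyp51 ran from 13.3 through 18.3 to 30.7 in MDS and from 17.6 through 42.1 to 63.8 in AML (0.94 ± 0.32, adjusted p = 0.0951). AML 3 and AML 4 held the highest values of all 3 enzymes, and AML 2 lay within the MDS range for each. Acat2 ran from 5.35 through 6.998 to 9.61 in MDS and from 7.68 through 12.4 to 21.9 in AML (0.71 ± 0.28, adjusted p = 0.123).

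The call changed with the processing. Without AML 1, Dhcr7 (adjusted p = 0.0119) and Lss (0.0190) were called by limma, among 21.9% of all genes. Without AML 2, Dhcr7, Lss and Cyp51 were called (0.0471 each), among 5.71% of genes. By edgeR's quasi-likelihood test on the recovered reads, Dhcr7 (0.0459) and Lss (0.0493) were called and Cyp51 was not (0.0728), among 3.97% of genes. Setting AML 1, 4 and 5, the AML mice exposed as the MDS mice were, against MDS gave differences of 1.18 for Dhcr7, 1.34 for Lss and 1.19 for Cyp51. Their adjusted p was 0.108, 0.109 and 0.108, or 0.285 for each with the other AML libraries kept in the fit, and in both fits 0 of 11275 genes were called. AML 3, 4 and 5 carried lymphoid transcripts. Cd3e, of the T cell receptor complex, was at 258.2 in AML 4 and 946.9 in AML 5 and at 16.2 or less elsewhere. Rag1, of the lymphoid recombinase, was at 44.5 in AML 3 and 585.6 in AML 5 and at 3.23 or less elsewhere. Without these 3, which also held the 3 highest Dhcr7 values, the differences were 0.55 for Dhcr7, 0.61 for Lss and 0.51 for Cyp51, with adjusted p of 0.218, 0.258 and 0.441, and 0 members were called, as were 0% of genes. That set was chosen after these values were seen.

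**Figure D4:**
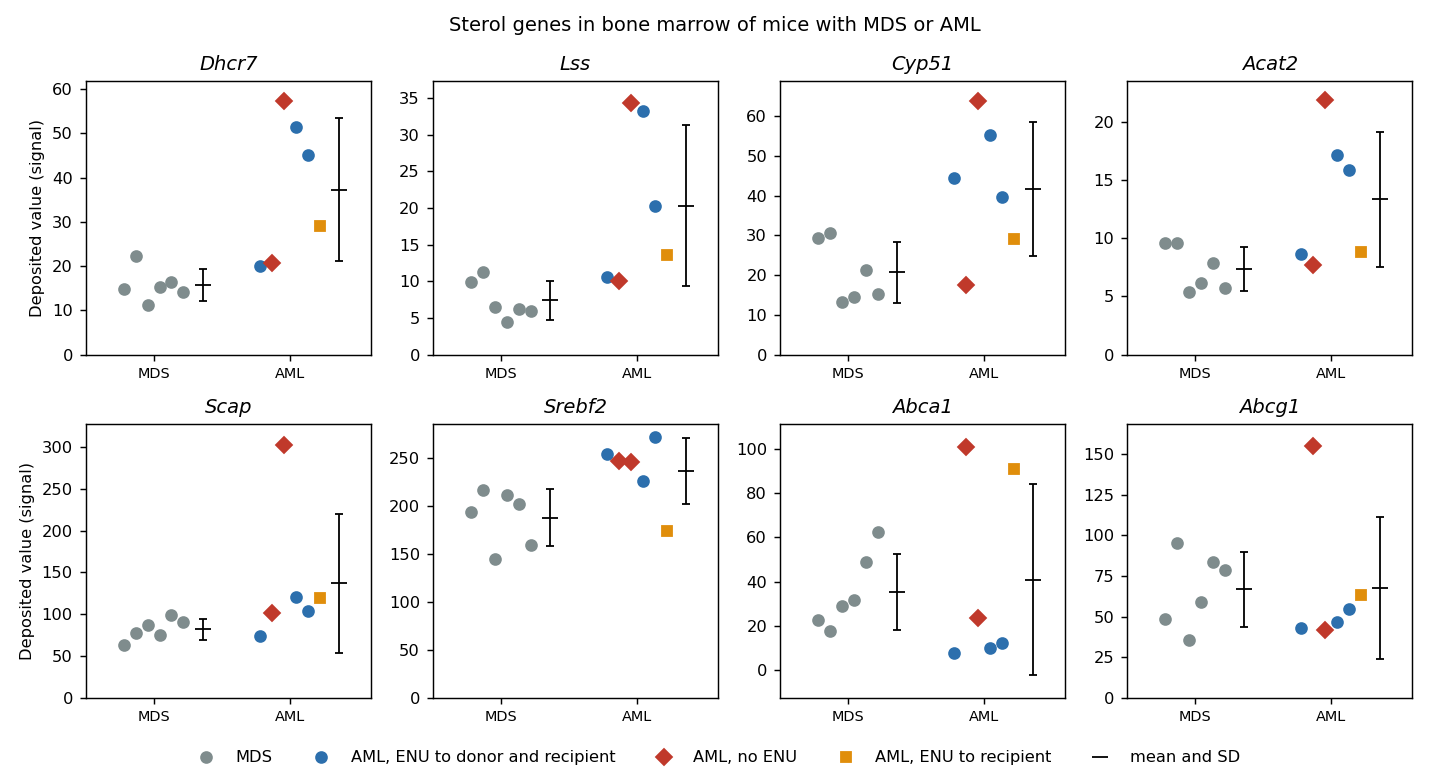
Deposited value (signal) of 8 members in the 12 marrow libraries, with 1 point per library and the mean with SD to the right of each group. Colours and shapes give the ENU exposure of the AML mice. Dhcr7 and Lss are highest in AML 3 and AML 4, while Abca1 is highest in AML 2 and AML 6.

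The other enzymes were mixed. The 7 mevalonate enzymes had a median difference of -0.13, with 5 lower and 2 higher, Acat2 and Mvk, the mevalonate kinase (0.77, adjusted p = 0.128 by limma). The 11 later enzymes, Dhcr7, Lss and Cyp51 included, had a median of 0.07, with 7 higher and 4 lower. Sc5d was spread from 7.32 to 34.5 in AML against 25.0 to 30.4 in MDS. The median pairwise r of the 18 enzymes over the 12 libraries was 0.24, with 62 of 153 pairs below 0. Against the MDS range, AML 1 had 9 of 18 enzymes above and 0 below, with 22.1% and 21.1% of all genes above and below. AML 2 had 1 above and 5 below (31.6% and 28.6% of all genes), and AML 4 had 6 above and 5 below (36.2% and 33.3%). AML 5 had 9 of 18 enzymes above and 1 below (36.3% and 31.7% of all genes). AML 3 had 9 above and 6 below (41.9% and 39.5% of all genes), and AML 6 had 2 above and 7 below (34.8% and 31.7%). All 5 regulators had a positive log2 difference in AML, as had 52.7% of all genes, and none was called. For Insig2 (0.09) the medians were 17.5 in MDS and 17.4 in AML, and AML 5 was highest at 31.7. Scap (0.59) was highest in AML 3 at 302.5. Srebf2 ran from 144.2 through 197.7 to 216.4 in MDS and from 174.1 through 245.8 to 272.1 in AML (0.33), and AML 6 was the sole AML library within the MDS range. Insig1 ran from 23.2 through 27.4 to 34.0 and from 24.5 through 33.8 to 59.5 (0.35), and Srebf1 from 76.6 through 104.6 to 123.1 and from 99.7 through 123.1 to 187.6 (0.36). Mylip ran from 46.1 through 59.7 to 72.0 in MDS and from 26.8 through 39.3 to 70.7 in AML (-0.52), the lowest difference among the transport genes.

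Lineage transcripts differed widely between these marrows, and their part in the sterol values was not tested. The 5 erythroid genes tested summed to 5567 to 18542 in MDS and 15.6 to 4064 in AML, and 1 of them was called lower. The B cell genes Cd79a and Ebf1 were at 408.6 and 419.6 in AML 3 and at 37.9 and 9.06 or less in the other 11. The 10 cycling genes, all lower in AML, summed to 2917 to 6906 in MDS and 1112 to 3461 in AML. The 10 neutrophil genes summed to 56592 to 91074 in MDS and 429.7 to 111964 in AML. The 8 macrophage genes summed to 355.1 to 905.3 and 35.6 to 2591, and the 11 T cell genes to 43.3 to 112.3 and 74.9 to 3866. Over the 6 related gene lists, the single call in AML against MDS was Rnf139, an endoplasmic reticulum ubiquitin ligase listed under SREBP processing. It was at 92.8 ± 19.2 in MDS and fell to 49.4 ± 11.6 in AML (SD, n = 6 and 6; log2 difference -0.91, adjusted p = 0.0423 by limma), without overlap. The 12 fatty acid synthesis genes had a median of 0.32 with 8 higher, the 12 LXR and efflux genes -0.25 with 9 lower, and the 17 of sterol transport and storage -0.26 with 12 lower.

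AML by exposure set AML 1, 4 and 5 against AML 2 and 3, a comparison of 3 with 2 libraries of unlike lineage content. It called 0 members, against 46 of 11275 genes (0.408%), and 1414 genes (12.5%) and 3 members had an unadjusted p under 0.05. Abca1 (chr4:53030787-53159895), which exports cholesterol to apolipoproteins, was at 7.76, 9.97 and 12.2 with ENU and 100.7 and 23.7 without (-2.21 ± 0.62, adjusted p = 0.145). The groups did not overlap, but AML 2 set the size: the difference was -1.19 without AML 2, and -3.23 without AML 3 (adjusted p = 0.0284). AML 6, exposed through the recipient only, was at 90.9. AML 2 also had the highest Abcg1 (155.2) and Npc1 (142.8). Its 8 macrophage genes had the highest sum (2591, of which 1965 was the receptor Csf1r), but only 5 of the 8 were above their mean over the 12 libraries, and C1qa, at 1.03, was lowest of the 12.

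Sc5d was at 34.5, 20.4 and 28.3 with ENU and 24.2 and 7.32 without (0.96 ± 0.40, adjusted p = 0.345). Insig1 was at 59.5, 40.9 and 30.2 with ENU and 27.8 and 24.5 without (0.66 ± 0.29), with no overlap. Scap was at 74.5, 121.1 and 103.9 with ENU and 101.0 and 302.5 without (-0.83 ± 0.40). AML 3 set both the lowest Sc5d and the highest Scap. With AML 3 left out, the differences were 0.16 for Sc5d and -0.04 for Scap. With AML 2 left out instead, Fdps, Sc5d and Scap were called, among 22.7% of all genes, in a contrast with a lone unexposed library whose spread is borrowed from the other groups. Without AML 3, Abca1 and Npc1 were called, among 2.12% of genes, with the same limit. By edgeR on the recovered reads 0 members were called, against 0.133% of genes. There were 3 members without overlap. Of these, 2 were higher (Insig1 and Stard4), against 8.31% of genes, and Abca1 was lower, against 6.69%.

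Levels per kb of exon put Srebf2 first in marrow (29.5 ± 5.48 over 12 libraries) and Srebf1 next (21.4 ± 6.02), with Ebp at 17.7 ± 4.09 and Mvd at 16.6 ± 6.43 within each other's spread. Idi1 was lowest at 0.435 ± 0.177 per kb, and its deposited value was at most 2.81 in any marrow library. Abcg1 was at 9.19 ± 4.56, Mylip at 15.9 ± 4.85 and Abca1 at 3.68 ± 3.02 per kb. In stroma Fdps led at 171.9 ± 88.5 TPM, followed by Hmgcs1 at 144.9 ± 90.9 and Msmo1 at 132.9 ± 54.4 TPM, which do not differ beyond their spread. Abcg1 was lowest in stroma at 4.07 ± 2.31 TPM. The tables were scaled separately, so levels are ordered within a table only. The genes most like the mevalonate mean were Nifk (r = 0.99) and Emc6 (0.98) in LSK cells and Acad11 (0.87) and Rpe (0.85) in marrow, each over 12 libraries.

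Some members share sequence with a neighbour in the annotation. Tm7sf2 overlaps Vps51, Fdps overlaps the predicted gene Gm43738 and Srebf2 overlaps Gm49502 (2110 bases) on the same strand, so their values are uncertain where reads were split. Fdft1 and Ctsb, Cyp51 and Akap9, and Srebf1 and Rai1 overlap on opposite strands. Larger opposite-strand overlaps, with genes that have no values here, include Lss with 4930483K19Rik (11268 bases), Mvd with Gm20388 (9822) and Hmgcs1 with Gm48342 (6190). The kit keeps strand, and no label says whether counting used it.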

How the data were processed

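RNA from 12 LSK, 12 marrow and 6 stromal libraries was extracted with TRIzol and sequenced after a stranded mRNA kit, per the labels' protocols. The submitters' processing notes name bcl2fastq, FastQC, TopHat, SAMtools, edgeR and mm10 without versions. No source used here states the counting program, annotation, filter or scaling. The deposited LSK and marrow values are a normalised signal named CPM by the authors, whose totals differ from those of CPM, and the deposited stromal values are TPM. The design had planned for CPM, and its test on the log scale also serves a signal.

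Groups came from the labels. Values were taken as log2(value + 1), filtered to genes at 1 or more in at least the number of libraries of the smaller group, and tested with limma 3.58.1 in R 4.3.3 with Benjamini-Hochberg adjustment over all genes tested. Each table was fitted with all its groups. Marrow reads were recovered from the value steps (99.99 to 100% whole within 0.05) and tested with edgeR 4.0.16. The fitting code was tested on simulated data. Named members were up to 4 with the smallest p in each comparison, provided that 1 group averaged 5 or more, fixed regulators and targets for levels, and genes chosen after their values were seen for the figures, sequences and per-role sentences. Members and lists were chosen with earlier results of these data known. Positions are from GENCODE on GRCm38 (mm10) and windows from RefSeq on GRCm38.p6.

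In stroma, same-numbered libraries deviated together (r = 0.56, 0.70 and 0.74), so by a rule on correlations the numbers were taken as pairs in the block fit. The stromal differences, SE and p of the named members come from the fit without a block, apart from the blocked p of Tm7sf2. No label says what a number shares. In numbers 1 and 2, Ddx3y was at 0.219 and 0.201 TPM in mock and at 69.8 and 68.1 TPM in ENU. The marrow table listed 155 alias rows, which were merged, and Cyp51 was matched by synonym after first results. Alternatives were another pseudocount, no filter, rescaling, compared groups only, a replicate block, each library left out, and others added after seeing the data: a set or term for the 3 LSK libraries with the highest summed value, AML 3, 4 and 5 left out, edgeR on recovered reads, both number 3 stromal libraries left out and a Y-linked term. One gene of the B cell list, and sums that hold it, are not reported here.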

Additional observations from a re-analysis of the deposited data

Results flagged for a closer look

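Of 56 sets of 6 marrow values tested (28 members in MDS and in AML), 4 had a library far from the others by Dixon's criterion, where chance flags about 1 in 20. All 4 were in AML. Scap in AML 3 was at 302.5, with the next highest at 121.1, and Mvk in AML 3 was at 30.8, with the next at 14.9. Ebp in AML 1 was at 62.5, with the next at 38.9. Abcg1 in AML 2 was at 155.2, with the next at 63.5.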

How the results depend on the processing

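Over 101 alternatives in the 7 comparisons, 96 called 0 members, and 97 gave a member median of the same sign as reported. All 404 values of the named members kept their sign. These members were picked by the smallest p in the same libraries. A kept sign was therefore likely from the start and is no separate support. In AML against MDS, 2 members were called by edgeR on recovered reads, and leaving out 1 library gave 0 to 3 (2 without AML 1, 3 without AML 2). In AML by exposure, leaving out 1 library gave 0 to 3 (3 without AML 2, 2 without AML 3). Leaving out 1 library called 0 members elsewhere. The cause was not tested. The member median ranged from -0.33 to -0.15 for transplanted WT against WT, from -0.15 to 0.13 for EAP against transplanted WT, from 0.05 to 0.13 for EAP with ENU against transplanted WT, from -0.01 to 0.26 for EAP with ENU against EAP, from 0.01 to 0.15 for AML against MDS, from -0.05 to 0.15 for AML by exposure, where 2 of 13 turned in sign, and from -0.76 to -0.15 in stroma. With the replicate number as a block, 0 members were called in every comparison, stroma included. In LSK cells and marrow the samples share only a number. Depth is unknown in LSK cells and stroma, so no counting error can be given there, and 2 or 3 libraries a group limit what could be called.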
